A study of Mus musculus with 13 samples.

Results

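Single-cell transcriptomes of mouse thymus and spleen were made with split-pool barcoding, and 9 genes of their count tables are described here: Rn18s-rs5, Cdk8, Cmss1, Lars2, Gm19951, Gphn, Camk1d, Peak1 and Gm15564. They are 9 of the 57010 genes in the gene lists and were taken by symbol. They had been chosen by their measured UMI counts, which were very high and differed between the wells of the first barcoding round, so high counts and differences between wells are given as a description, without a test. In the Parse WT experiment, samples of both organs, from mice that were young or adult, went into 1 kit, and the labels give control and chronic stress treatment for the pool. In the Parse Mini experiment, thymocytes of untreated control mice from separate biological replicates were used. All cells were fixed before barcoding. The WT table held 128624 cells and 776766947 unique molecular identifiers (UMIs) from 20 tissue samples in 48 first-round wells, with 1 sample in each well. The Mini table held 20085 cells and 120510449 UMIs from 4 samples, T-1-A, T-1-B, T-2-A and T-2-B, in 12 first-round wells. The labels do not give the tissue or treatment of single tissue samples, so the names in the cell table (CVS_C, CVS_S, YD_C and tenxP with a number) serve as names and are not compared as groups. The study used 2-month-old female C57BL/6N mice for its thymic samples, with lobes of 1 mouse counted as technical replicates, so that p-values over samples may cover technical spread only.

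Ribosomal RNA makes up most of the RNA of a cell, and 18S ribosomal RNA is the RNA of the small ribosomal subunit. Methods that capture only polyadenylated RNA leave most of it out, whereas the split-pool method also primes reverse transcription with random hexamers. In the first round each cell is barcoded by reverse transcription in a known well, and in later rounds the cells are pooled and split again. A difference between first-round wells can thus be seen within 1 tissue sample, since each sample was spread over 2 or 3 such wells.

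Rn18s-rs5 (ENSMUSG00000119584) is the locus to which 18S ribosomal RNA is assigned. RefSeq annotates it as a pseudogene at chr17:39846354-39848202 of GRCm38.p6, the assembly also called mm10. In GENCODE M21, also on GRCm38, this interval overlaps CT010467.1, Gm42418 and AY036118, which are annotated as an rRNA and 2 lincRNAs. Of the other 8 genes, 6 code for proteins. Cdk8 (chr5:146231230-146302874, plus strand) encodes a cyclin-dependent kinase of the Mediator complex. Cmss1 (chr16:57302000-57606864, minus strand) is named as a homolog of a yeast protein of the small ribosomal subunit. Lars2 (chr9:123366927-123462666, plus strand) encodes the mitochondrial leucyl-tRNA synthetase. Gphn (chr12:78226379-78684772, plus strand) encodes gephyrin, a scaffold of inhibitory synapses that also makes molybdenum cofactor. Camk1d (chr2:5293457-5714515, minus strand) encodes a calcium/calmodulin-dependent kinase, and Peak1 (chr9:56201126-56418067, minus strand) a pseudokinase of the cytoskeleton. Gm19951 (chr12:99643093-99647221, plus strand) is a lincRNA and Gm15564 (chr16:35966752-35983230, minus strand) an antisense transcript, both without a known function.

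These loci share little in their annotation. Cmss1, Gphn, Camk1d and Peak1 are among the longest genes, at or above the 98.2 percentile of gene length, and Gm19951, with 4129 bp, was at the 53.4 percentile. Exons cover 0.655% of Cmss1 and 0.818% of Gphn but 13.7% of Cdk8. Filip1l, which codes for a filamin A interacting protein, lies on the opposite strand within Cmss1, and Gm15564 lies opposite to Parp9 and Kpna1. The strand setting of the counting was not given, so reads of such partners could not be told apart. The annotated transcripts of the 8 genes held no word of 31 bases in common with those of Gm42418, Gm26917 or AY036118, the annotated loci at the Rn18s-rs5 repeat, and neither did words of 25 or 50 bases. Introns and 28S ribosomal RNA were not compared, because no sequence of either was used here. The search therefore does not show that the transcripts lack ribosomal sequence.

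Lars2 and Gm15564 were the only pair of the 8 genes whose transcripts shared a word of 31 bases, and their sequences are shown for this reason. The shared stretch was 72 bases long with 1 mismatch (98.6% identity) and held an identical run of 52 bases. A window of 30 bases around the mismatch is printed with the differing base in capitals. In Lars2 (ENSMUST00000038863.8) the window lies in the 3′ UTR at chr9:123462086-123462115 on the plus strand. In Gm15564 (ENSMUST00000173605.1) it lies in an exon of the non-coding transcript at chr16:35981729-35981758 on the minus strand, and the whole stretch spans 2 of its 4 exons.
Lars2: gaacgtgagctgggAttagaccgtcgtgag
Gm15564: gaacgtgagctgggTttagaccgtcgtgag
With positions counted from 1 at the 5′ end of the window, the substitution from Lars2 to Gm15564 is A15T. A word of 31 bases from the identical run was held by 3 of 55341 genes, the third being AA474408. With words of 25 bases, a second pair of members appeared, Cdk8 and Lars2, with 1 shared word, and Cdk8 shared 4 with Il31ra, which is no member.

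The 9 genes held 28.5% of all UMIs in Parse WT and 15.2% in Parse Mini. Rn18s-rs5 alone held 17.4% in WT, with a median of 461 UMIs per cell, and 10.5% in Mini, with a median of 215. It ranked first among all genes in both experiments. Cdk8 and Cmss1 followed in WT with 4.68% and 3.12% of UMIs, ahead of the mitochondrial ribosomal RNA mt-Rnr2 with 3.07%, and in Mini they held 1.38% and 1.22%. Lars2, Gm19951, Gphn and Camk1d held 1.12%, 0.984%, 0.688% and 0.395% in WT and ranked 7 to 10. For scale, Malat1, an abundant nuclear RNA, held 1.26%. Peak1 and Gm15564 were far less abundant, with 0.0486% and 0.0510% in WT, ranks 125 and 111. These shares are of UMIs and are not scaled for transcript length. At least 97.3% of WT cells had a UMI of each of the first 7 genes, and 39.2% had one of Peak1.

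Levels are given below as UMIs per 10000 UMIs outside the 9 genes and mt-Rnr1 and mt-Rnr2, so that none of these genes is part of its own denominator. Across the 48 WT wells Rn18s-rs5 ranged from 783 in well D11 through a median of 2755 to 6467 in well A5, and across the 12 Mini wells from 734 through 1302 to 1743. The other genes spanned wider ranges in WT. In Mini all did but Camk1d, whose highest well was 1.87 times its lowest, against 2.37 times for Rn18s-rs5. Cdk8 ranged from 69.6 through 378 to 3835 in WT, where its highest well was A6 and the next, C1, had 3012. Cmss1 ranged from 166 through 414 to 2610 in well C1. Lars2 ranged from 42.3 through 155 to 2192 in well A5. Rn18s-rs5 and Lars2 thus shared their highest well, and Cdk8 and Cmss1 had theirs in others. Gm19951 ranged from 57.4 through 134 to 1422 in well C5, and the next well had 577. Gphn ranged from 25.4 through 89.1 to 733 in well B11, with 561 in well A5. Camk1d ranged from 16.97 through 53.7 to 236 in well C1, the highest well of Cmss1 as well. Gm15564 had the widest range, from 0.947 through 5.26 to 181 in well A5, followed by 33.1 in well C2, so that well A5 stood apart for both Gm15564 and Lars2. Peak1 was between 1.35 and 6.81 in all wells but A9, with 102, and A12, with 38.2.

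**Figure D1:**
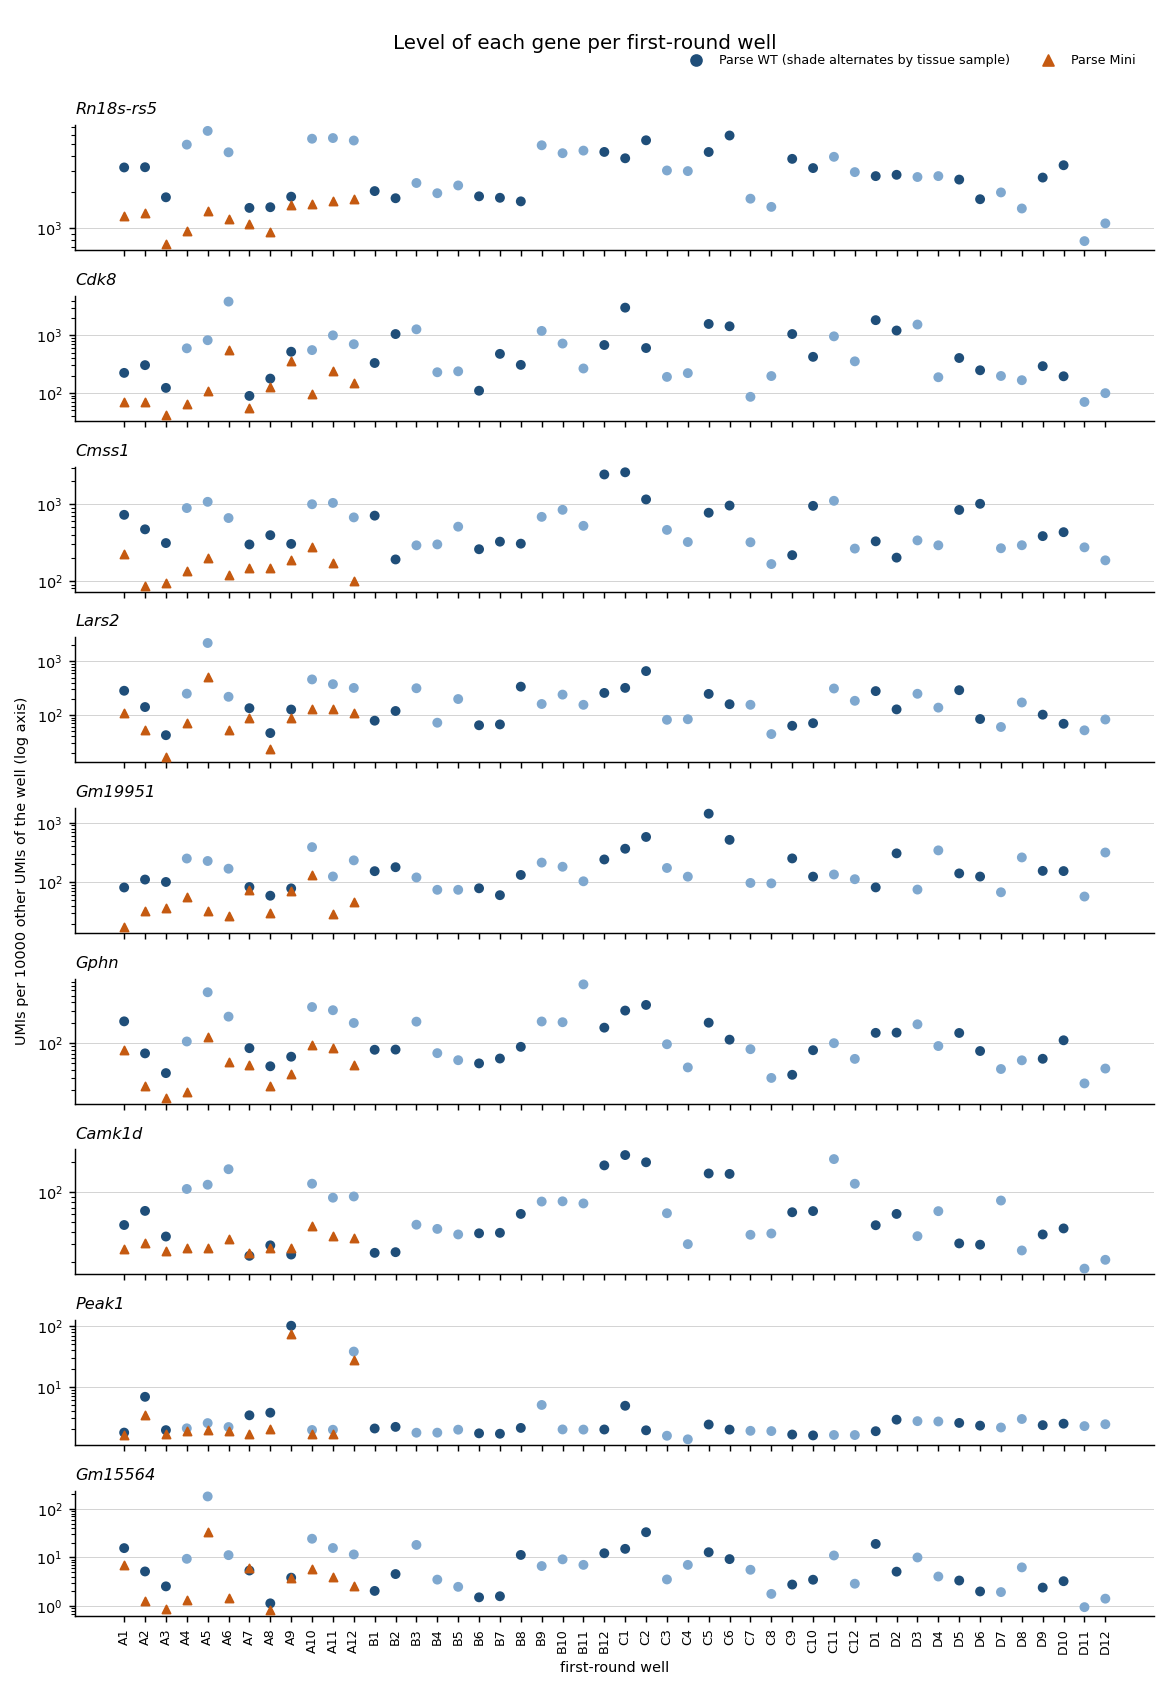
Level of each gene (UMIs per 10000 other UMIs of the well, log axis) in the 48 first-round wells of Parse WT (circles, with the shade changing at each tissue sample) and the 12 of Parse Mini (triangles). Single wells stand apart for single genes in both experiments, such as A9 and A12 for Peak1 and A5 for Lars2 and Gm15564. For Cdk8 A6 is the highest well in both, followed by C1 in WT and A9 in Mini.

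Wells A9, A12 and A5 stood apart in the Mini experiment too. Peak1 was 74.0 in Mini well A9 and 27.2 in A12 against a median of 1.84. Lars2 was 504 in well A5, where the next well had 132, and Gm15564 was 33.8 there, where the next had 6.98. Cdk8 was highest in well A6 again, with 562, and well A9 had 360. When the log2 level of each well A1 to A12 was taken relative to the mean of the 3 wells of its sample, the deviations in the 2 experiments correlated with r = 0.993 for Gm15564, the highest of 2339 genes. The correlation was 0.991 for Lars2, 0.990 for Gphn, 0.988 for Peak1 and 0.981 for Cdk8, and lower for Gm19951 (0.906), Camk1d (0.883), Rn18s-rs5 (0.837) and Cmss1 (0.751). The median over all genes was 0.634. The 2 experiments share neither cells nor sublibraries. These 12 points share the well names and the grouping into 4 samples of 3 wells in each experiment, and they are given as a description. Over these 12 wells, other genes whose deviations had an SD over 0.5 in both experiments were Rn7sk, Il31ra, Rpph1, Ccnb1ip1, Scarna2 and Atg4a. Rn7sk, Rpph1 and Scarna2 are small structural RNAs, and Rpph1 overlaps Ccnb1ip1 on the same strand.

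**Figure D2:**
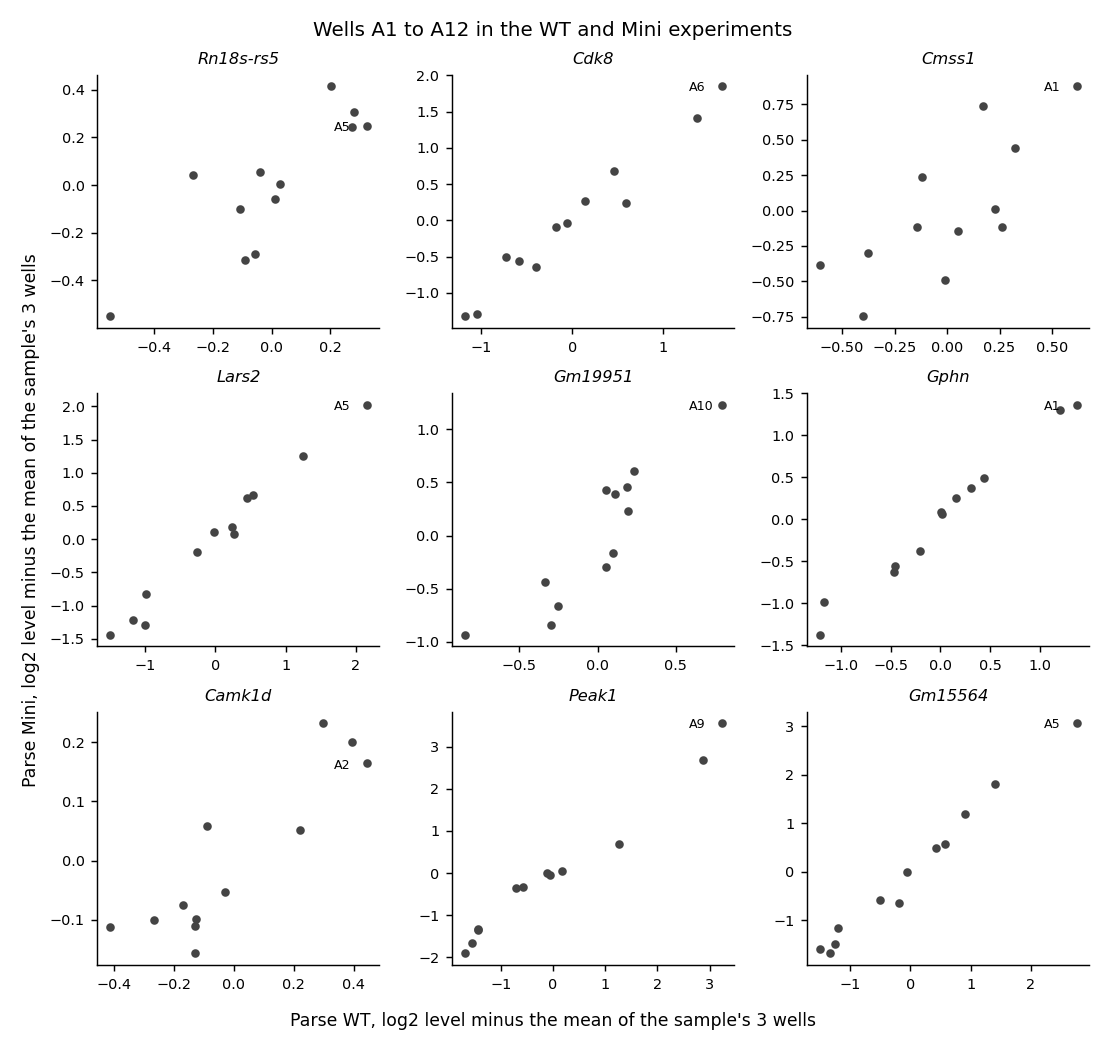
Deviation of the log2 level of wells A1 to A12 from the mean of the 3 wells of the same sample, in Parse WT (x axis) and Parse Mini (y axis), with 1 point per well and the well highest in WT named. The points of Gm15564, Lars2, Gphn, Peak1 and Cdk8 lie close to a line.

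Wells of 1 tissue sample hold cells of the same suspension, and most of the genes differed between them. The SD of the log2 level between wells of a sample in WT was 1.18 for Gm15564, 1.09 for Peak1, 1.04 for Cdk8 and 0.97 for Lars2, ranks 2 to 5 of 2424 genes after Rn7sk (1.81). It was 0.78 for Gphn, 0.73 for Gm19951, 0.60 for Cmss1 and 0.38 for Camk1d, against a median of 0.11 over all genes. Rn18s-rs5 had 0.24, rank 110, and 93.1% of its sum of squares over wells lay between samples, against 39.8% for Peak1 and 57.3% for Lars2. In WT Rn18s-rs5 thus varied mainly from sample to sample, whereas Peak1 varied mainly from well to well within a sample. In Mini the share between samples was 45.4% for Rn18s-rs5 and lower for Peak1, so both genes varied more within samples there. Sublibraries are aliquots of 1 pool of barcoded cells. Between the 8 WT sublibraries of over 1000 cells the highest level of a gene was at most 1.37 times the lowest (Peak1), and 1.04 times for Rn18s-rs5. Sublibrary 9, with 702 cells, stood apart for Cdk8, at 466 against 685 to 734 in the others, and with it the ratio was 1.57 for Cdk8 and 1.71 for Peak1. Few partners of the same pathways had enough UMIs in every WT well to be ranked. Of the Mediator kinase module 4 of 6 were, with an SD between wells from 0.08 for Cdk19, a paralog of Cdk8, to 0.26 for Med12, which was above Rn18s-rs5. Of the CaM kinases 2 of 10 were, Camk2d with 0.09 and Camk4 with 0.22, and of the 16 mitochondrial aminoacyl-tRNA synthetases 1 was, Fars2 with 0.07. No gene of cofactor synthesis or of the Peak family was ranked. In Mini Camkk1, a CaM kinase, had 0.39, above Camk1d with 0.16.

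Across the 48 WT wells the log2 levels of 7 genes rose and fell with that of Rn18s-rs5. The correlation was 0.81 for Camk1d, 0.74 for Gphn, 0.71 for Gm15564, 0.67 for Cmss1, 0.65 for Cdk8, 0.63 for Lars2 and 0.54 for Gm19951, and it was 0.01 for Peak1. These wells share samples. After subtraction of the sample means the correlations of the 7 genes fell to values between 0.09 for Cdk8 and Gm19951 and 0.48 for Lars2. That of Peak1 was 0.15. The mitochondrial ribosomal RNAs mt-Rnr1 and mt-Rnr2 correlated with Rn18s-rs5 across wells (0.64 and 0.70), but within samples the correlation was -0.43 for both. Across the 12 Mini wells the order differed in part, with 0.69 for Gphn and Lars2, 0.64 for Camk1d, 0.52 for Gm15564, 0.51 for Cdk8, 0.46 for Peak1, 0.39 for Cmss1 and 0.18 for Gm19951. Within Mini samples Peak1 had 0.52 and Gm19951 -0.13. There mt-Rnr1 and mt-Rnr2 went against Rn18s-rs5 across wells, with -0.81 and -0.86. Lars2 and Gm15564, which share the printed stretch, correlated at 0.91 across WT wells, 0.91 within samples and 0.92 across Mini wells. Gphn, which shared no word with either, had 0.81, 0.72 and 0.85 with Gm15564, in this order. With Lars2 it had 0.79, 0.67 and 0.84. The part of the shared stretch in these correlations was not tested.

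Within single wells the cells with more Rn18s-rs5 also had more of 7 of the other 8 genes. Each count was compared with the value expected from the UMIs of the cell outside the 9 genes and mitochondrial ribosomal RNA, and the residuals were correlated over the cells of a well (617 to 11259 cells per WT well, with a median of 2089). The median correlation over the 48 wells was 0.81 for Gm19951, 0.79 for Cdk8, 0.76 for Cmss1, 0.75 for Gphn, 0.72 for Lars2, 0.71 for Camk1d and 0.42 for Gm15564. These were ranks 1 to 7 of 8855 genes, whose median was -0.004, and all 7 genes were above 0 in 48 of 48 wells. The lowest well was 0.19 for Gphn and 0.56 for Gm19951. In T-like cells alone the medians of the 7 genes were 0.35 to 0.82, and the lowest well was below 0 for Gphn (-0.58), Cmss1 (-0.35) and Lars2 (-0.11). In B-like cells alone, in 41 wells, they were 0.41 to 0.82, and the lowest well was 0.03 for Gphn and Gm15564. The median correlation of Peak1 was 0.01, rank 2367. The cells of a well share 1 denominator and 1 well, and no test was made.

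The Mini experiment gave the same order in part. There the median over 12 wells, of 1496 to 1887 cells each, was 0.78 for Cdk8, 0.67 for Cmss1, 0.66 for Gm19951, 0.54 for Lars2 and 0.46 for Gphn, ranks 1 to 5 of 8407 genes. Camk1d had 0.40 (rank 7), Gm15564 had 0.28 (rank 12), or 0.15 after thinning each cell to 1000 UMIs, and Peak1 had 0.00 (rank 3864). Among other genes the highest in WT were Il31ra (0.40), a cytokine receptor subunit, Filip1l (0.33) and mt-Rnr2 (0.31). They were followed by the proliferation genes Mki67 (0.29) and Top2a (0.26), by Ptma and mt-Rnr1 (0.28 each), and by the red cell genes Slc4a1 (0.27) and Hba-a1 (0.26). In Mini they were mt-Rnr2 (0.43), mt-Rnr1 (0.38), Il31ra (0.34), Ptma (0.32), Ccnb1ip1 (0.31), Rpph1 (0.27) and the proliferation genes Hmgb2, Anp32b, Top2a and Cenpf (0.22 to 0.26). The abundant genes Malat1, Satb1 and Themis lay near or below 0, with -0.05, -0.01 and 0.06 in WT and -0.10, -0.09 and -0.08 in Mini. Among partners by pathway, in WT Cdk19 had -0.02, Med13 had -0.03, Fars2 had -0.02, Camk2d had -0.07 and Camk4 had 0.02. In Mini Cdk19 had 0.03 and Fars2 -0.04, while Camk4 with -0.10 (rank 8404) and Med13l with -0.06 were below 0 in 12 of 12 wells.

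**Figure D3:**
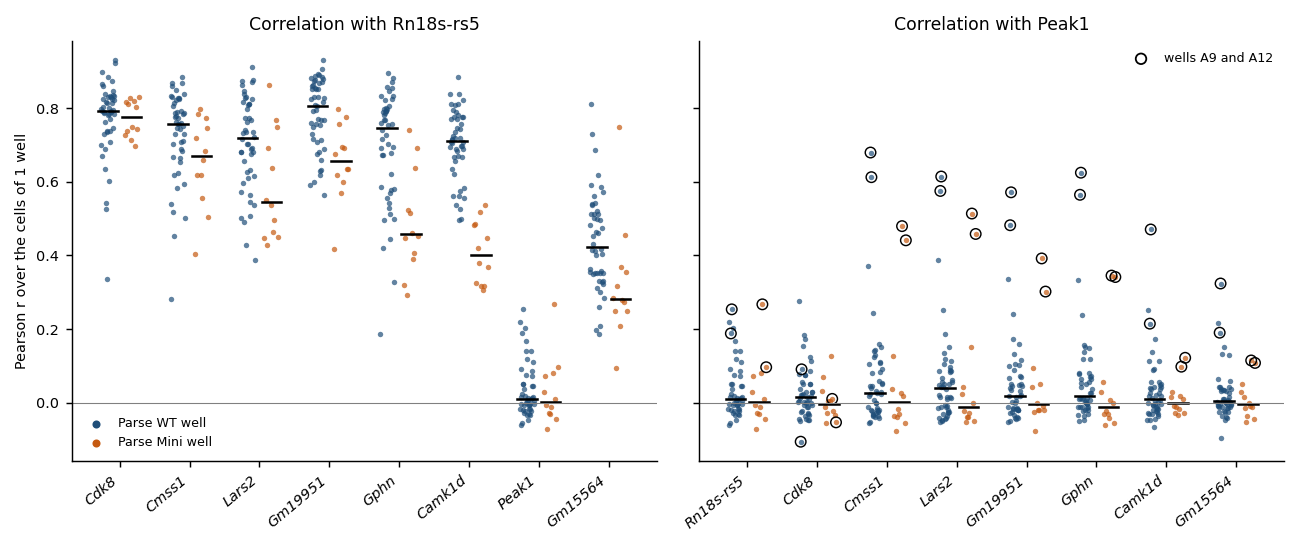
Pearson correlation over the cells of 1 well, with 1 point per well and a black line at the median, of each gene with Rn18s-rs5 (left) and with Peak1 (right). Of the genes on the left Peak1 alone lies around 0, and on the right wells A9 and A12 (ringed) stand above the other wells for Cmss1, Lars2, Gm19951 and Gphn.

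The members also correlated with each other within wells. In WT the highest medians were 0.89 for Cmss1 with Lars2, 0.85 for Gm19951 with Gphn and 0.84 for Cmss1 with Gm19951, above the values of these genes with Rn18s-rs5. The lowest pair without Peak1 was Cdk8 with Gm15564 (0.36). In Mini the pair Cmss1 and Lars2 was again high (0.72), second to Rn18s-rs5 with Cdk8 (0.78). Peak1 and Gm15564 had the fewest counts, with a mean of 2.94 and 3.08 UMIs per cell in WT, and the part of this in their correlations was not tested here.

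Peak1 correlated with some of the other genes in the wells where its own level was high. In WT well A9 its correlation over cells was 0.68 with Cmss1, 0.58 with Lars2, 0.56 with Gphn and 0.48 with Gm19951, and in well A12 it was 0.61, 0.61, 0.63 and 0.57. In well A2, the third by Peak1 level, these values were 0.37, 0.39, 0.33 and 0.34. In the Mini experiment they were 0.48, 0.51, 0.35 and 0.39 in well A9 and 0.44, 0.46, 0.34 and 0.30 in well A12. Mini well A2, also the third by Peak1 level, had 0.13, 0.04, 0.06 and 0.09. The median over all wells was between -0.01 and 0.04 for these 4 genes in both experiments. Cdk8, Camk1d and Gm15564 had lower values in wells A9 and A12. In WT wells A9 and A12 they were -0.11 and 0.09 for Cdk8, 0.21 and 0.47 for Camk1d and 0.19 and 0.32 for Gm15564. In Mini they were 0.01 and -0.05 for Cdk8, 0.10 and 0.12 for Camk1d and 0.11 in both for Gm15564. Wells A9 and A12 belonged to samples CVS_C_3 and CVS_C_4 in WT and to T-2-A and T-2-B in Mini.

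Cells of different depth within a well also differed in part of these genes. The cells of each well were split into 4 groups of equal size by their UMIs outside the 9 genes and mitochondrial ribosomal RNA. From the shallowest to the deepest group the level was higher by a median of 0.63 on the log2 scale for Lars2, 0.58 for Cmss1 and 0.55 for Gphn, and it was higher in the deepest group in 47, 48 and 47 of 48 WT wells. For Rn18s-rs5 and Cdk8 the median was 0.10 and 0.00, with 31 and 25 of 48 wells above 0. In Mini it was 0.52 and 0.44, with 12 and 11 of 12 wells above 0. Malat1 fell in all 48 and all 12 wells, by a median of 0.39 and 0.53.

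To ask whether any of these genes carried a signal of cell type, WT cells were placed in marker-defined classes and their UMIs were summed per tissue sample and class. The classes held 56244 T-like, 42266 B-like, 2763 erythroid-like, 2023 myeloid-like and 1145 neutrophil-like cells, with a median of 3124, 3166, 7776, 3325 and 1644 UMIs, and 23995 cells had no class. Cells entered a class by their marker UMIs, so the levels of these markers are a description. Per 10000 other UMIs, T cell markers were 86.5 to 169 in the T-like and 1.79 to 7.37 in the B-like class, and erythroid markers were 129 to 295 in the erythroid-like and at most 0.899 in every other class. Myeloid markers had a median of 96.1 in the myeloid-like class and were also found in the neutrophil-like class, with 19.0 to 58.4 and a median of 33.95. Markers of the cell cycle differed too, with a median of 124 in the erythroid-like, 24.9 in the neutrophil-like, 4.75 in the myeloid-like, 4.45 in the T-like and 3.41 in the B-like class. Plasma, NK and dendritic classes, with 93, 36 and 59 cells, were too small to test. In every comparison of classes both came from the same tissue samples, and UMIs were summed over the wells of a sample. The sample was a block in the model, but the well was not, so differences between wells of a sample can enter. Differences were tested with edgeR's quasi-likelihood test and Benjamini-Hochberg adjustment over 10715 genes. Values within wells, given without a test, are from wells with at least 50 cells of both classes. The members move together within wells, so their counts are not counts of independent genes.

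B-like cells had less of all 9 genes than T-like cells in the fit over 17 samples. Rn18s-rs5 was 596 to 4150 with a median of 1964 in B-like cells and 1209 to 6810 with a median of 2523 in T-like cells. The ranges overlapped widely, and within samples B-like cells were lower in 14 of 17, with single differences between -1.05 and 0.37 on the log2 scale. The fitted log2 difference was -0.40 (SE 0.10, adjusted p = 0.000357). Cdk8 was 48.3 to 1626 in B-like and 127 to 1925 in T-like cells and lower in B-like cells in 15 of 17 samples (log2 difference -0.59, SE 0.09, adjusted p = 9.2e-08). Within wells Rn18s-rs5 and Cdk8 were lower in B-like cells in 31 and 32 of 41. The median for Cdk8 was -0.50 within wells, against -0.88 over samples. Peak1 had the largest difference of the 9 (-0.73, SE 0.13, adjusted p = 2.12e-06) and was lower in 16 of 17. The other 6 fell by between 0.26 (Gm15564) and 0.45 (Gm19951), with adjusted p between 0.000115 and 0.026 and lower values in 13 to 15 of 17 samples. All 9 of the members passed the threshold of 0.05, as did 52.4% of all genes tested, with 28.0% of all genes higher and 24.3% lower. Without the sample as a block none of the 9 passed, where 2634 genes of all were called higher and 2422 lower. The 3 samples with a higher Rn18s-rs5 level in B-like cells were CVS_C_5, CVS_S_2 and CVS_S_5.

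Erythroid-like cells stood above T-like cells for 8 of the 9 genes. Rn18s-rs5 was 2624 to 12072 with a median of 6051 in erythroid-like cells of 14 samples, and the T-like median was 3459. It was higher in 14 of 14 samples, with a fitted log2 difference of 1.32 (SE 0.10, adjusted p = 1.86e-18). Gm15564 differed most, by 1.72 (SE 0.11, adjusted p = 2.33e-22), with a median of 19.1 against 6.85, and Cdk8 differed least, by 1.06 (SE 0.10, adjusted p = 2.24e-15). Cmss1, Lars2, Gm19951, Gphn and Camk1d lay between, at 1.36 to 1.52, and each of the 8 was higher in 14 of 14 samples. Within wells Rn18s-rs5 was higher in 23 of 24, and each of the others but Peak1 in 24 of 24. Among all genes 81.0% were called, 36.8% higher and 44.2% lower. Peak1 was lower in erythroid-like cells, by 0.67 (SE 0.14, adjusted p = 2.27e-05), in 13 of 14 samples. The erythroid-like cells were deeper and had more cell cycle markers, as given above, and the part of either in the difference was not tested in this class. Slc4a1 and Hba-a1, which correlated with Rn18s-rs5 over WT cells, are markers of this class. The tests here are thus not evidence independent of those correlations. The median of all genes in this comparison was -0.17 and moved to -0.38 when UMIs outside the 9 genes and ribosomal RNA served as library size, and Rn18s-rs5 then differed by 1.11.

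Myeloid-like cells differed less from T-like cells. Over 16 samples Rn18s-rs5 was 1332 to 9055 with a median of 2854, against 2969 in T-like cells, and its log2 difference of 0.20 did not pass the threshold (SE 0.10, adjusted p = 0.0728). Cdk8 did not pass either (0.13, SE 0.09, adjusted p = 0.225). Without sample tenxP_1, which held 120 of the B-like and 3836 of the T-like cells but no tested sum of myeloid-like cells, both passed, at 0.25 and 0.20. Cmss1, Lars2, Gm19951 and Gphn were called higher with differences of 0.25 to 0.27, but not without samples CVS_C_3 and CVS_C_4, where the values were 0.19 to 0.22. They were also not called in cells of 3000 to 6000 UMIs, with 0.08 to 0.26. Camk1d (0.41, SE 0.10, adjusted p = 0.000199) and Gm15564 (0.44, SE 0.11, adjusted p = 0.000254) remained called in both, and were higher in 13 and 14 of 16 samples. Within wells Camk1d and Gm15564 were higher in 14 and 15 of 19. Cmss1, Lars2, Gm19951 and Gphn were each higher in 11 of 19, with a median of 0.11 for Cmss1 against 0.40 over samples. Peak1 was lower in 15 of 16 samples, by 1.13 (SE 0.15, adjusted p = 4.83e-10). Of all genes 68.4% were called, 29.5% higher and 38.9% lower.

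Neutrophil-like cells could be compared in 9 samples. Rn18s-rs5 was 1316 to 4825 with a median of 3055, against 3503 in T-like cells, and the log2 difference was -0.17 (SE 0.12, adjusted p = 0.208). It was lower in 8 of 9 samples, with a median difference of -0.50 between levels. With UMIs outside the 9 genes as library size the fitted difference was -0.42 and passed (adjusted p = 0.000945), as did 5 of the 9 genes, all lower, where 47.1% of all genes were lower. Without a filter it was -0.41 and 7 of the 9 passed, all lower, where 13.8% of the 37534 genes then tested were lower. In the fit with the filter and the usual library size 2 of the 9 genes passed the threshold, against 63.9% of all genes (27.0% higher and 36.9% lower). Peak1 was lower in 9 of 9 samples (-1.56, SE 0.22, adjusted p = 4.77e-09). Gm15564 was higher by 0.35 (SE 0.14, adjusted p = 0.0218) in 6 of 9 samples, but this call was lost without CVS_C_3 and CVS_C_4 (0.26) and with UMIs outside the 9 genes as library size (0.09) and without a filter (0.12). The neutrophil-like cells had the lowest median of UMIs among the classes tested. Only 6 wells could be compared, and there Peak1 was lower in 6 of 6 and Rn18s-rs5 in 4 of 6. Cmss1 was higher in 5 of 6 wells (median 0.18), though lower in 6 of 9 samples (-0.14). Cdk8 was higher in 4 of 6 wells (0.12), though lower in 7 of 9 samples (-0.31).

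**Figure D4:**
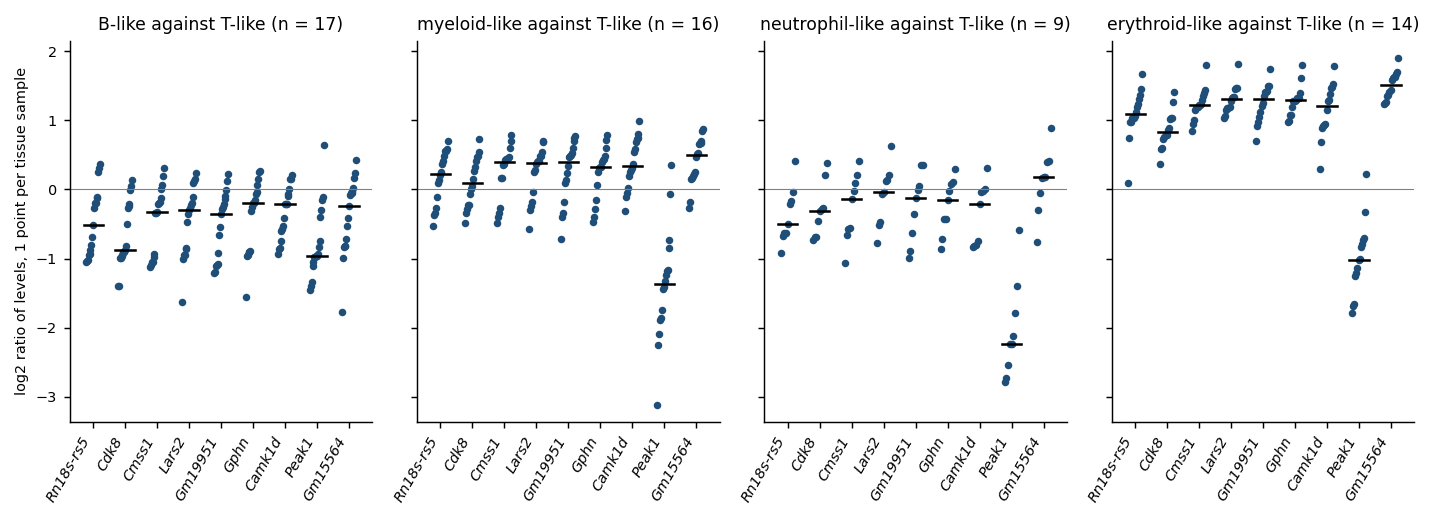
Log2 ratio of the level of each gene in 4 cell classes to that in T-like cells, with 1 point per tissue sample and a black line at the median. Points of erythroid-like cells lie above 0 in all 14 samples for every gene but Peak1, and Peak1 lies below 0 in 13 to 16 samples of the larger classes and in 9 of 9 of the neutrophil-like class.

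Erythroid-like cells came first for all genes but Peak1, in every sample that held both classes. The erythroid-like level of Rn18s-rs5 was above that of myeloid-like, neutrophil-like and B-like cells in 14 of 14, 8 of 8 and 14 of 14 samples. Next came myeloid-like and T-like cells, whose difference did not pass the threshold, with myeloid-like cells higher in 11 of 16 samples. Neutrophil-like cells were above B-like cells in 6 of 9 samples, a pair not tested. For Peak1 T-like cells came first, and B-like cells were above neutrophil-like cells in 9 of 9 samples.

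When the UMIs of Rn18s-rs5 were used as library size, little of the difference between classes was left for most genes. In B-like cells Cdk8 (-0.21, SE 0.06, adjusted p = 0.00156) and Peak1 (-0.35, SE 0.16, adjusted p = 0.047) were lower than in T-like cells, where 70.4% of all genes passed and 11.6% were lower, and none of the other 6 passed. In erythroid-like cells Cdk8 was lower by 0.28 and Lars2 and Gm15564 were higher by 0.18 and 0.38, where 89.0% of all genes passed, 75.4% lower and 13.5% higher. In myeloid-like cells Camk1d (0.19) and Gm15564 (0.21) were higher, where 68.0% of all genes passed and 23.0% were higher, and in neutrophil-like cells Lars2 (0.26) and Gm15564 (0.47) were, where 58.3% passed and 27.2% were higher. Gm15564 was thus higher relative to Rn18s-rs5 than in T-like cells in 3 of the 4 classes, in 13 of 14, 14 of 16 and 9 of 9 samples. The difference of Cmss1, Gm19951 and Gphn from Rn18s-rs5 was between -0.07 and 0.16 in all 4 classes and did not pass in any. In cells of 3000 to 6000 UMIs Peak1 no longer passed in the B-like comparison on this scale (-0.21), and Camk1d was higher there by 0.19. The scale and the depth range were chosen after the data were seen.

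Of the 8 genes Peak1 departed most from Rn18s-rs5 in erythroid-like, myeloid-like and neutrophil-like cells. In B-like cells its fitted departure was the largest too, but the median over samples was -0.08, smaller in size than that of Camk1d (0.17), Gm15564 (0.16), Cdk8 (-0.13) and Gm19951 (-0.11), and Rn18s-rs5 was itself called lower in the B-like comparison and not called in the neutrophil-like one. Relative to Rn18s-rs5, Peak1 was lower than in T-like cells by 2.03 in erythroid-like, 1.43 in myeloid-like and 1.57 in neutrophil-like cells. The edgeR adjusted p was 2.51e-16, 1.09e-10 and 1.82e-07, in this order. Of all genes 75.4% were lower in erythroid-like, 45.0% in myeloid-like and 31.1% in neutrophil-like cells on this scale. The median of all genes was -1.48, -0.37 and -0.16, so in erythroid-like cells most genes fell relative to Rn18s-rs5 as well. In 14 of the 17 samples its level was 1.96 to 5.93 in T-like and 1.58 to 3.14 in B-like cells. In CVS_C_3, which held well A9, it was 44.0 in T-like, 39.4 in B-like and 56.1 in myeloid-like cells. In CVS_C_4, which held well A12, it was 21.7 in T-like, 16.5 in B-like, 25.5 in erythroid-like, 20.7 in myeloid-like and 14.5 in neutrophil-like cells. All classes were thus high in these 2 samples, and the order of the classes differed from that elsewhere. In tenxP_1 B-like cells were higher than T-like cells (2.89 against 1.84). Without CVS_C_3 and CVS_C_4 the log2 differences of Peak1 were -0.78 in B-like, -0.79 in erythroid-like, -1.37 in myeloid-like and -1.95 in neutrophil-like cells. Peak1 was thus above T-like cells in none of the 4 comparisons.

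Cycling cells were compared with non-cycling cells that carried markers of double-positive thymocytes, the most common stage of T cell development in the thymus. The comparison was made in 4 samples of each experiment, tenxP_1 to tenxP_4 in WT and all 4 in Mini, with the sample as a block. The paper counts lobes of the same mouse as technical replicates, and samples that are such lobes are not independent animals. The p-values of this comparison thus do not measure the spread between mice. These cells are among those in which Rn18s-rs5 correlated with proliferation genes, so the comparison gives the size of the difference and its tests are not evidence independent of those correlations. In WT Rn18s-rs5 was 1879, 3551, 3519 and 2871 in cycling cells of tenxP_1 to tenxP_4 and 1387, 2998, 2820 and 2326 in their non-cycling cells. It was higher in cycling cells in 4 of 4 samples, with a log2 difference of 0.28 (SE 0.02, edgeR adjusted p = 1.72e-07). In Mini it was 1284, 1460, 1429 and 2049 in cycling and 825, 835, 970 and 1251 in non-cycling cells of T-1-A, T-1-B, T-2-A and T-2-B. The difference was 0.62 (SE 0.04, edgeR adjusted p = 5.89e-12). All 8 genes other than Peak1 were higher in 4 of 4 samples of both experiments. They differed by 0.28 to 0.53 in WT, where 53.7% of all genes were called and 26.8% were higher, and by 0.30 to 0.94 in Mini, where 53.4% were called and 27.4% were higher. Gm15564 had the largest difference in both (0.53, SE 0.04, and 0.94, SE 0.07). Cdk8 was 173, 741, 643 and 1754 in cycling and 106, 534, 425 and 1290 in non-cycling cells of WT, a difference of 0.51 (SE 0.03), and differed by 0.73 (SE 0.04) in Mini. In DESeq2 the WT difference of Cdk8 had an SE of 0.80 and did not pass. Without the sample as a block 0 of the 9 genes passed in WT and 3 in Mini, where 27.5% and 44.4% of all genes did.

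Within wells the 8 genes were higher in cycling cells in 8 of 8 WT and 12 of 12 Mini wells. Peak1 was lower in WT (-0.20, SE 0.03, edgeR adjusted p = 6.73e-05), where 27.0% of all genes were called lower, and in 8 of 8 wells. In Mini its difference was -0.03 (SE 0.05, adjusted p = 0.623), where 26.0% of all genes were called lower, with 10 of 12 wells lower and a higher level in 2 of 4 samples. Cycling cells were deeper, with a median of 10861 against 2997 UMIs in WT and 9385 against 2618 in Mini. Among cells of 3000 to 6000 UMIs, a range chosen after the data were seen, the difference of Rn18s-rs5 was 0.34 in WT and 0.32 in Mini, and that of Cdk8 was 0.56 and 0.26. Camk1d was no longer called in Mini there (0.14, SE 0.06, edgeR adjusted p = 0.0585), and Peak1 was lower in both, by 0.44 and 0.40. Relative to Rn18s-rs5, Gm15564 was higher by 0.25 in WT and 0.30 in Mini, where 66.9% and 80.5% of all genes passed and 13.1% and 7.84% were higher. Peak1 was lower by 0.49 and 0.68, where 53.8% and 72.7% were called lower and the median of all genes was -0.29 and -0.62. Cdk8 was higher by 0.23 in WT, and its 0.11 in Mini did not pass, with 4 of 4 samples higher in each. Cmss1, Lars2 and Gphn were called higher in WT, by 0.11 to 0.13 and in 4 of 4 samples, whereas in Mini they were not called (-0.14 to -0.09) with 4 of 4 samples lower. Camk1d was higher in WT by 0.16 and lower in Mini by 0.32 on this scale. In cells of 3000 to 6000 UMIs these 2 differences of Camk1d were 0.03 and -0.19 and did not pass, and neither did those of Gm15564 (0.12), Lars2 (0.005) and Gphn (-0.039) in WT.

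**Figure D5:**
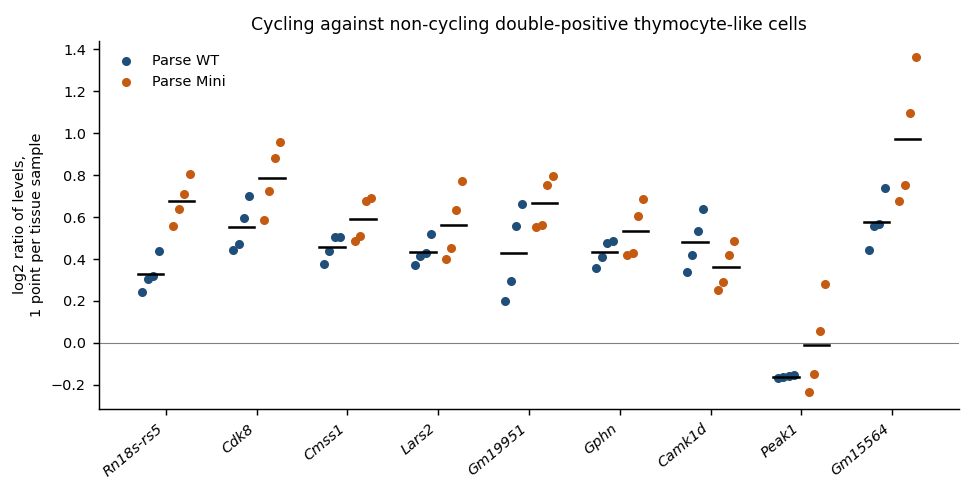
Log2 ratio of the level of each gene in cycling to that in non-cycling cells with double-positive thymocyte markers, with 1 point per tissue sample (4 in each experiment) and a black line at the mean. All points of the 8 genes other than Peak1 lie above 0 in both experiments, and for Rn18s-rs5 those of Mini lie above those of WT.

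Other genes of the same pathways were called in both directions in erythroid-like cells, where 36.8% of all genes were higher and 44.2% lower. Of the 6 other genes of the Mediator kinase module, 6 were tested in each comparison, and in erythroid-like cells 3 were higher and 1 lower, with a median log2 difference of 0.25, beside 1.06 for Cdk8. Of the 16 other mitochondrial aminoacyl-tRNA synthetases 13 were tested there, of which 3 were higher and 7 lower with a median of -0.27, beside 1.52 for Lars2. Of the 10 other CaM kinases 6 were tested, with 1 higher and 4 lower and a median of -2.92, beside 1.36 for Camk1d. Of the 4 other genes of molybdenum cofactor synthesis 3 were tested, with 1 higher and 1 lower. Of the pseudokinases related to Peak1 only Prag1 was tested, and it was lower by 4.71, by 4.89 in myeloid-like and by 4.89 in neutrophil-like cells. Among structural RNAs and unnamed loci 7 of 15 were tested, of which 5 were higher and 2 lower with a median of 0.44. In B-like cells, where 28.0% of all genes were higher and 24.3% lower, 1 of the kinase module was higher, 4 synthetases were higher and 1 lower, 2 CaM kinases were higher and 3 lower, 1 gene of cofactor synthesis was lower, Prag1 was higher by 0.64, and 1 structural RNA was higher and 2 lower. In myeloid-like cells, where 29.5% were higher and 38.9% lower, 1 of the kinase module was lower, 11 of 13 synthetases were lower and none higher, 3 CaM kinases were higher and 3 lower, 2 genes of cofactor synthesis were higher, and 1 structural RNA was higher and 4 lower. The neutrophil-like class, where 27.0% were higher and 36.9% lower, had 10 synthetases lower and none higher, 2 genes of the kinase module higher and 1 lower, 4 CaM kinases higher and 2 lower, 2 genes of cofactor synthesis higher, and 1 structural RNA higher and 5 lower. In cycling cells, where 26.8% were higher and 27.0% lower in WT and 27.4% and 26.0% in Mini, the kinase module had 2 genes higher and 3 lower in both experiments, the synthetases 3 higher and 4 lower, and the structural RNAs and unnamed loci 6 of 9 higher and 3 lower in WT and 5 of 8 higher and 2 lower in Mini. The CaM kinases had 3 higher and 4 lower in both, and the genes of cofactor synthesis none higher and 2 lower in WT and 1 in Mini. Cdk19, the paralog of Cdk8, was higher in cycling cells of both, by 0.34 and 0.32.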

How the data were processed

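For both Parse experiments the authors deposited raw UMI counts as a sparse matrix, with a table of cells and a list of genes. Per the labels the build is mm10 (GRCm38). The reads were processed with split-pipe, whose version was not given. The 10x libraries were not analysed here. The tissue sample and first-round well of each cell came from the cell table, and barcode combinations recur in different sublibraries for 34.9% of WT and 13.5% of Mini cells, which were kept as separate cells. The median depth was 3128 UMIs per cell in WT (lowest 463) and 2834 in Mini (lowest 572). The genes and lists were chosen with earlier results of these data known.

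A cell entered a class with UMIs of at least 3 different markers of that class and at least 80% of its lineage marker UMIs in it. The stricter gate, with 4 different markers and 90%, kept 50865 of 56244 T-like, 33157 of 42266 B-like and 759 of 2023 myeloid-like cells. Doublets were not called. Non-cycling cells had at most 5 cell cycle marker UMIs per 10000. Sums of at least 50 cells per sample and class, in at least 4 samples, were tested with edgeR 4.0.16 (glmQLFit and glmQLFTest, TMM, filterByExpr) in R 4.3.3, with the tissue sample as a block and Benjamini-Hochberg adjustment over all genes. The sample served as block because both classes share its suspension and wells, but wells within a sample were not blocks. In simulated counts the cell class fit, over 11397 genes, recovered 100% of 2-fold changes and 90.4% of changes of 0.5 on the log2 scale, and called 0.0624% of unchanged genes. The WT cycling fit, over 14340 genes, recovered 99% and 71.0%, and the Mini cycling fit, over 13624, 100% and 76.0%. Alternatives were DESeq2 1.42.0, other library sizes, filters, gates, depths and samples.

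Correlations used Pearson residuals per well, in genes with a mean of at least 0.05 UMI per cell. Well levels were ranked over genes with at least 100 UMIs in every well. Genes were matched to GENCODE M21 and RefSeq GRCm38.p6 by identifier or symbol. The named genes are the 9 members, 5 abundant genes for scale, the 10 other genes most correlated with Rn18s-rs5 and the partner lists; 1 of the correlated genes is not reported here. Genes that stood out between wells (Atg4a, Scarna2), overlapping genes (Parp9, Kpna1, AA474408) and cell samples named for their values were added after the values were seen. Python 3.11.15 with numpy 2.4.6, scipy 1.17.1 and pandas 2.3.3 was used.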

Additional observations from a re-analysis of the deposited data

Results flagged for a closer look

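The cycling difference of Rn18s-rs5 was larger in the Mini than in the WT experiment. In 1 edgeR fit over both experiments the log2 difference was greater by 0.34 in Mini (SE 0.04, adjusted p = 0.000384), where 0.189% of 14781 genes passed the threshold. None of the other 8 genes passed, with Gm15564 nearest (0.42 greater in Mini, SE 0.09, edgeR adjusted p = 0.0900). Kit, mice, depth and wells differ between the experiments and cannot be told apart. Among cells of 3000 to 6000 UMIs the differences were 0.34 in WT and 0.32 in Mini. No sample stood apart from its group in the 27 groups of 4 to 10 samples examined.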

How the results depend on the processing

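Of the values recomputed for single genes, 448 kept their direction and side of the threshold, 63 lost it, 17 gained it and 23 turned in direction, and of the main counts and correlations 223 stayed close and 31 moved. Without the replicate block the number of the 9 genes past the threshold was 0 in the B-like (9 with it), 8 in the erythroid-like (9), 0 in the myeloid-like (7), 0 in the neutrophil-like (2), 0 in the WT cycling (9) and 3 in the Mini cycling comparison (8), where 47.2%, 78.1%, 65.1%, 61.4%, 27.5% and 44.4% of all genes passed, in this order, and the WT cycling comparison called 3953 genes in place of 7720. In DESeq2 the WT cycling difference of Cdk8 was 0.51 with an SE of 0.80 and did not pass. Without a filter beyond 1 UMI the B-like comparison called 9028 genes in place of 5610 and the neutrophil-like 7 of the 9 (21.9% of all genes). With UMIs outside the 9 genes and ribosomal RNA as library size it called 5 of the 9 (69.3%).

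Leaving out 1 sample at a time kept 9 of 9 genes called in the WT cycling comparison and 8 to 9 in Mini, where Peak1 passed without T-2-B. The other lobe of the same mouse can remain in such fits. Of all genes 46.1% to 48.4% were then called in WT and 46.4% to 50.5% in Mini. Without tenxP_1, left out after its values were seen, the myeloid-like count rose from 7 to 9 (68.3% of all genes). Without CVS_C_3 and CVS_C_4 it fell to 3 (66.6%) and the neutrophil-like count to 1 (60.8%). In cells of 3000 to 6000 UMIs the myeloid-like count was 3 (48.8%), and 4334 genes were called in WT and 3923 in Mini cycling cells, where fewer genes and cells were tested. The erythroid-like and neutrophil-like classes had too few cells in this range, and the neutrophil-like class too few under the stricter gate.

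Values that turned in direction in the neutrophil-like comparison were uncalled in its main fit. Without a filter some of them were called lower after they turned. Cmss1 and Gphn (0.02 and 0.01) were -0.011 and -0.019 in DESeq2, -0.23 and -0.24 with the other library size, -0.21 and -0.22 without a filter, -0.055 and -0.048 without tenxP_1, -0.082 and -0.073 without CVS_C_3 and CVS_C_4, and -0.080 and -0.090 in cells of 500 to 25000 UMIs. Lars2 (0.12) was -0.13 with the other library size and -0.12 without a filter. Without the block Rn18s-rs5 was 0.17, Cdk8 0.20, Gm19951 0.54 and Camk1d 0.30. Peak1 in Mini cycling cells (-0.03) was 0.030 with the other library size, 0.038 without the block, and 0.0096 and 0.037 without T-1-A and T-1-B. Gphn relative to Rn18s-rs5 in WT cycling cells was -0.039 in cells of 3000 to 6000 UMIs. The causes were not tested.

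Correlations within wells were lower when residuals were taken on all UMIs, which include the 9 genes. In WT they were 0.659 for Cdk8, 0.579 for Cmss1, 0.549 for Lars2, 0.657 for Gm19951, 0.523 for Gphn, 0.4928 for Camk1d and -0.0747 for Peak1, and in Mini 0.7102 for Cdk8 and 0.262 for Camk1d. In T-like cells alone Cmss1 had 0.615 and Gphn 0.558 in WT. After thinning to 1000 UMIs Gm15564 had 0.275 in WT, and Cdk8, Gm19951 and Camk1d had 0.691, 0.475 and 0.251 in Mini, where Gm15564 had 0.147. The Spearman value of Cdk8 in Mini was 0.665. With words of 25 bases 2 pairs of the 8 genes with annotated transcripts shared one.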
